A study of Mus musculus with 8 samples.

Results

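The 39 protein-coding Hox genes annotated in the mouse lie in 4 clusters, named Hoxa, Hoxb, Hoxc and Hoxd. The members described here are the protein-coding genes of the count table whose symbol is Hox, a cluster letter and a number. There are 35 of them among 30660 gene identifiers, with 11 in Hoxa, 10 in Hoxb, 7 in Hoxc and 7 in Hoxd. Hoxc8, Hoxc12, Hoxd1 and Hoxd4 were not analysed here. The cells were primary mouse vascular smooth muscle cells, which form the muscular layer of blood vessels, taken from animals rather than from an established line, and their RNA was sequenced. Cells with knockdown of Sox6 (titled sisox6) gave 4 libraries, and control cells (titled nc) gave 4, with genotype and treatment both given as WT. The labels name neither the vessel, the strain, the age of the animals, the reagent nor the time after treatment. Whether replicates were separate cultures or animals is not labelled either, so the p-values reflect only how much these libraries vary, and part or all of that may be technical.

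Hox genes encode homeodomain transcription factors that give cells their position along the head-to-tail axis. Within each cluster the genes stand in the order in which they are used along the body: low numbers (paralogue groups) act towards the hindbrain and neck, middle numbers in the trunk, and the highest numbers in the lumbosacral region, tail and distal limb. Adult fibroblasts and smooth muscle cells keep part of this pattern in culture, so that the set of Hox genes they express is often read as a record of where they came from. Hox proteins bind DNA with TALE homeodomain partners of the Pbx, Meis and Pknox families. Their clusters are held silent by Polycomb complexes and opened by Trithorax complexes and, in the embryo, by retinoic acid.

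Sox6, a SoxD transcription factor and the target of the knockdown, had 2, 4, 0 and 0 counts in the knockdown libraries, against 6, 10, 6 and 4 counts in the control libraries. The groups meet at 4 counts, and both are close to the detection limit. In CPM, counts scaled to a common library size (for Sox6 the plain total), Sox6 averaged 0.0318 ± 0.0394 in knockdown cells and 0.144 ± 0.0527 in control cells (SD, n = 4 each; exact two-sided permutation test, p = 0.0286, the smallest that 4 against 4 libraries allow). Total counts were 43210260, 49393224, 37604102 and 46806703 in the knockdown libraries and 44265183, 45689951, 48039788 and 41672921 in the control libraries. At these depths a count of 0 allows a true value of up to 3 counts, or 0.0607 to 0.0798 CPM, if counts are independent. All Sox6 counts were even, as most low counts were, and if counts are not independent this limit is higher. Of 16150 genes tested with edgeR's quasi-likelihood test, 8311 passed an adjusted p (Benjamini-Hochberg) of 0.05, which is 51.5%. Of these, 4105 (25.4% of the genes tested) were higher and 4206 (26.0%) were lower in knockdown cells, and the median log2 fold change over all tested genes was 0.02. Scaling by total counts gave 5921 higher and 3046 lower and a median of 0.12, so the balance of directions depends on the scaling. Most of these changes were small, with 5426 called genes under 1.5-fold and 1453 over 2-fold. Counts of genes called are set against these shares.

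Of 9 smooth muscle markers, 8 were tested and 5 were lower in knockdown cells. For this and each marker list below, the share over all tested genes was 25.4% higher and 26.0% lower. The summed level of the smooth muscle list was 1309.6 to 1509 CPM in knockdown libraries and 1796 to 2071 CPM in control libraries. Acta2, the actin of smooth muscle, averaged 948 CPM in knockdown cells and 1239 CPM in control cells, whereas Tagln, Myocd and Lmod1, which also define the contractile cell, were each below 1 CPM in both groups. The smooth muscle label rests mainly on Acta2, Cald1 and Smtn rather than on the whole list. Markers of other cell types moved with the groups, and their part in the Hox results was not tested. All 4 mesothelial markers tested were lower, with a summed level of 40.5 to 46.8 CPM in knockdown libraries and 109 to 116 CPM in control libraries. All 4 cardiac muscle markers tested were lower too, at 22.1 to 82.3 CPM against 204 to 291 CPM in control libraries. Of 5 endothelial markers tested, 4 were lower and 1 was higher, at 4.69 to 6.40 CPM in knockdown libraries and 8.56 to 10.8 CPM in control libraries. Of 6 fibroblast markers, 2 were higher and 2 lower (1763 to 1932 CPM in knockdown libraries and 2171 to 2340.4 CPM in control libraries). Of 4 epithelial markers, 2 were lower (61.6 to 69.4 CPM in knockdown libraries and 83.3 to 88.6 CPM in control libraries). Of 2 leukocyte markers tested, 1 was higher (list sum 6.13 to 7.33 CPM in knockdown libraries and 3.55 to 5.71 CPM in control libraries), and the defining genes Ptprc, Adgre1 and Cd3e were near 0. The neural crest and glia list summed to 1.18 to 1.76 CPM in knockdown libraries and 1.03 to 1.62 CPM in control libraries, with Sox10 near 0. In bulk RNA, fewer cells of a type and less RNA per cell cannot be told apart.

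Of the 6 well-expressed Hox genes that were higher in knockdown cells, 4 have a promoter in the RefSeq table of mouse build GRCm38.p6. They are shown because the comparison of the groups turns on these genes. Each window holds 250 bases before the annotated start and 50 after it, written 5′ to 3′ on the gene's own strand. Capitals mark the only match to TGATTNAT, a motif that Pbx and Hox proteins bind together, read on both strands.
Hoxa2: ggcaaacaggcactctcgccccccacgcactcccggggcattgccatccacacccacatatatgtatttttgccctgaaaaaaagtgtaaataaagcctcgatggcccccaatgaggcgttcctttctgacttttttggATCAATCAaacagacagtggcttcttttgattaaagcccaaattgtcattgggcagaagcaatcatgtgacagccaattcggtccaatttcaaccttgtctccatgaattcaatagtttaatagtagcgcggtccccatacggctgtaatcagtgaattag
Hoxa5: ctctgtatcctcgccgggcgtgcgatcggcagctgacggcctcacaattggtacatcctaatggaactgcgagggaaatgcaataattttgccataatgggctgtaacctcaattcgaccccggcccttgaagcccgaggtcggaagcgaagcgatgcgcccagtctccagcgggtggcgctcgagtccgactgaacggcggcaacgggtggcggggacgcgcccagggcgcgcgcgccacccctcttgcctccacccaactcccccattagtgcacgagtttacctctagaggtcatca
Hoxa7: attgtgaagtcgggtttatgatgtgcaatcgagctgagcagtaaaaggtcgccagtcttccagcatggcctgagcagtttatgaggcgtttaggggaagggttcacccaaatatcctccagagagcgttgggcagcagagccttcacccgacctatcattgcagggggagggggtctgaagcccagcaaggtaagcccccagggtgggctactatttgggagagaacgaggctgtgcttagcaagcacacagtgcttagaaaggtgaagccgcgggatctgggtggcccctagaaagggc
Hoxb4: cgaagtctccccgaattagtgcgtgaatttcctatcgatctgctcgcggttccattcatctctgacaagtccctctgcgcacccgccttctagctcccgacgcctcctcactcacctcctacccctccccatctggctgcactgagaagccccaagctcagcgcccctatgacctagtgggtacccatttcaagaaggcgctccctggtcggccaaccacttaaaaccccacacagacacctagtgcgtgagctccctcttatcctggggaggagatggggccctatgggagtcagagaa
The windows lie at chr6:52164782-52165081 (Hoxa2), chr6:52204538-52204837 (Hoxa5) and chr6:52218524-52218823 (Hoxa7) on the minus strand, and at chr11:96318017-96318316 (Hoxb4) on the plus strand. The Hoxa5 window holds 29 CpG dinucleotides, the Hoxb4 window 14, and the Hoxa2 and Hoxa7 windows 9 each. Over the 22 windows of the 20 Hox genes that have one, the median was 14.5 CpG, against 7 over all 32851 windows of the table. The median was 14 in the 7 windows of expressed Hox genes and 15 in the 15 windows of the others. The Sox core motif AACAAT, searched on both strands, was in 0 of the 22 Hox windows and in 3521 (10.7%) of all windows. The TGATTNAT motif, chosen after results were known, was in 2 of the 22 Hox windows (9.09%), those of Hoxa2 and Hoxd11, and in 1058 (3.22%) of all windows. These matches describe letters in a short window and say nothing of binding elsewhere.

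Among the genes analysed, the Hox profile of these cells was that of anterior and trunk groups from 2 clusters. Of the 35 genes, 14 averaged at least 1 CPM over the 8 libraries, among them Hoxa2 to Hoxa7 and Hoxb2 to Hoxb8. The lowest of the 14 averaged 3.385 CPM and the highest of the other 21 averaged 0.2975 CPM, so no gene stood near the 1 CPM line. The 14 genes held 99.35% of all Hox counts in knockdown cells and 99.48% in control cells. All Hox genes together had 254.9, 267, 255.3 and 284.5 CPM of the unscaled totals in the knockdown libraries, against 211.2, 211.4, 216.5 and 212.3 in the control libraries. The groups did not overlap, with means of 265 ± 13.9 CPM in knockdown cells and 213 ± 2.49 CPM in control cells (SD, n = 4 each). Part of this gap comes from the scaling. Most other CPM use totals multiplied by TMM factors of 0.958 to 0.978 in control libraries and 1.02 to 1.04 in knockdown libraries. Relative to control cells, unscaled totals therefore place knockdown cells higher than TMM scaling does.

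**Figure D1:**
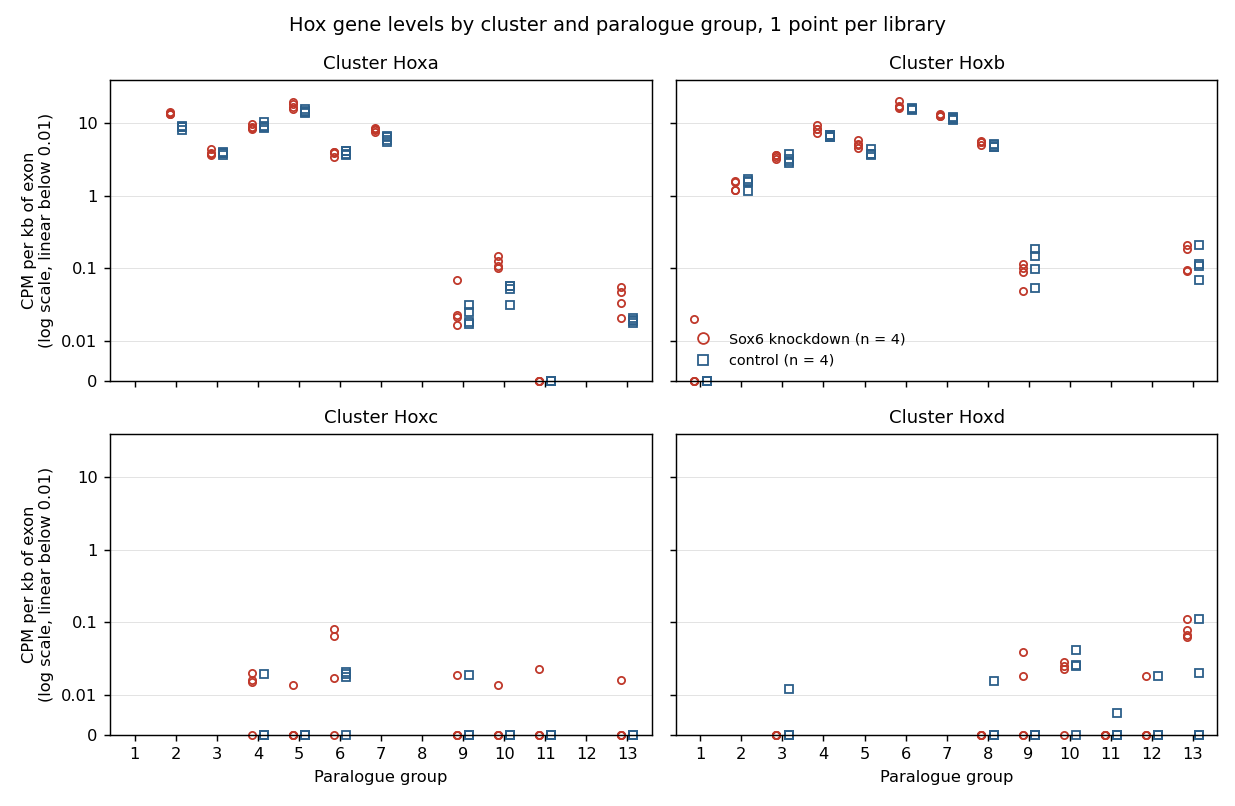
Level of each Hox gene (CPM per kb of merged exon length, log scale that turns linear below 0.01) by paralogue group in the 4 clusters, with 1 circle per knockdown library and 1 square per control library. Hoxa2 to Hoxa7 and Hoxb2 to Hoxb8 sit above 1 CPM per kb in both groups, and every other gene shown sits below 0.3; positions without a point have no gene shown.

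Levels were compared between genes as CPM per kb of merged exon length. Hoxb6, a trunk gene, had the highest mean in control cells, with 16.1, 16.9, 17.5 and 20.2 CPM per kb in knockdown libraries and 15.8, 15.4, 16.3 and 16.0 CPM per kb in control libraries. Hoxa5, which in the mouse patterns the neck-to-thorax boundary and the lung, followed with 15.7, 18.7, 16.6 and 20.01 CPM per kb in knockdown libraries and 13.9, 14.75, 14.2 and 15.7 CPM per kb in control libraries. The pair overlapped in both groups, and in knockdown cells their means were nearly equal, at 17.75 CPM per kb for Hoxa5 and 17.69 for Hoxb6. Hoxb7 had 12.7, 13.1, 12.4 and 13.4 CPM per kb in knockdown libraries and 12.1, 11.0, 11.5 and 11.8 CPM per kb in control libraries. Hoxa4 came next with 9.75, 8.57, 8.26 and 8.91 CPM per kb in knockdown libraries and 8.63, 9.28, 10.35 and 8.78 CPM per kb in control libraries. In control cells Hoxb7 overlapped neither Hoxa5 above it nor Hoxa4 below it. Below these the control means ran in the order Hoxa2 (8.78), Hoxb4 (6.70), Hoxa7 (6.15), Hoxb8 (4.88), Hoxa6 (3.94), Hoxb5 (3.89), Hoxa3 (3.87), Hoxb3 (3.17) and Hoxb2 (1.502 CPM per kb). Among these neighbours the control libraries overlapped between Hoxa4 and Hoxa2, between Hoxb4 and Hoxa7, and in each step from Hoxa6 to Hoxb3, and were apart in the other steps. Levels of Hoxa3 and Hoxb3 depend most on the gene model: with the longest transcript as length, Hoxa3 was at 8.98 CPM per kb in control cells, and with exon not shared with another gene, Hoxb3 was at 6.74.

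Summed over paralogues, the level per kb of merged exon was lower in group 3 than in group 2, highest over groups 4 to 7, and low again in group 8. Group 2 summed to 15.2 ± 0.692 CPM per kb in knockdown cells and 10.3 ± 0.509 in control cells. Group 3, which acts in the pharyngeal arches, summed to 7.42 ± 0.485 CPM per kb in knockdown cells and 7.04 ± 0.470 in control cells. The 4 highest groups, active from neck to trunk, followed. Group 4 summed to 17.3 ± 1.345 CPM per kb in knockdown cells and 16.0 ± 0.545 in control cells, and group 5 to 23.0 ± 2.29 in knockdown cells and 18.5 ± 0.674 in control cells. Group 6 summed to 21.5 ± 1.97 CPM per kb in knockdown cells and 19.8 ± 0.436 in control cells, and group 7 to 21.1 ± 0.691 in knockdown cells and 17.75 ± 0.748 in control cells. Group 8 fell away to 5.45 ± 0.298 CPM per kb in knockdown cells and 4.89 ± 0.194 in control cells. Hoxb8 was its only expressed gene among those analysed, which do not include Hoxc8. Groups 2, 5 and 7 did not overlap between knockdown and control libraries, with ratios of means of 1.48, 1.24 and 1.19, while groups 3, 4, 6 and 8 overlapped. With the longest transcript as length, group 3 was at 13.2 CPM per kb in control cells, so its place below group 2 depends on the gene model. Group 7, at 22.6, then took the place of group 6 as the highest.

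**Figure D2:**
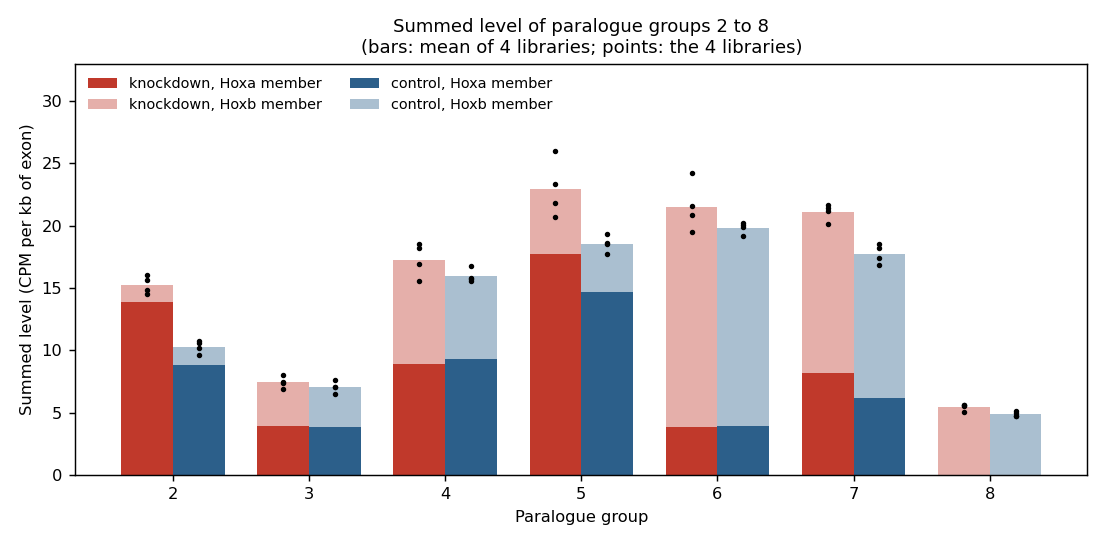
Summed level (CPM per kb of merged exon) of paralogue groups 2 to 8, with knockdown bars left of control bars; bars are means of 4 libraries split into the Hoxa and Hoxb members, and points are the libraries. Groups 4 to 7 stand highest, and group 2 shows the widest gap, 15.2 in knockdown cells against 10.3 in control cells.

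The drop after group 7 in Hoxa and group 8 in Hoxb was steep. Hoxa7 stood 256-fold above Hoxa9 per kb in knockdown cells and 274-fold above it in control cells. Hoxb8 stood 62.6-fold above Hoxb9 in knockdown cells and 40.6-fold in control cells. Hoxa and Hoxb shared the total almost evenly, at 51.25% and 48.65% of the Hox level in control cells. Hoxa summed to 59.9 ± 2.54 CPM per kb in knockdown cells and 50.4 ± 0.966 in control cells, and Hoxb to 54.7 ± 3.60 in knockdown cells and 47.9 ± 0.688 in control cells. Neither cluster overlapped between the groups, with ratios of means of 1.19 and 1.14. The analysed genes of Hoxc and Hoxd were close to silent, with 0.0244% and 0.0696% of the control total. Hoxc8, Hoxc12, Hoxd1 and Hoxd4 are not among them, so this does not cover the whole clusters.

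Among the 14 expressed genes, 6 were higher in knockdown cells (42.9%, against 25.4% of all tested genes), 0 were lower (against 26.0%) and 8 did not pass the test. In either direction the share was thus 42.9%, against 51.5% of all tested genes. All tested genes include rarer ones than these 14, so the shares are not fully alike. Of the 17 Hox genes tested in all, 7 were higher (10 with total scaling) and 0 lower with edgeR. None was lower at an unadjusted p under 0.05, with DESeq2 or with limma-voom. The 7 include Hoxa10, which entered the test only through the knockdown libraries. Without control replicate 3, 1 Hox gene was called lower. The 6 risen expressed genes were 3 of Hoxa (Hoxa2, Hoxa5 and Hoxa7) and 3 of Hoxb (Hoxb4, Hoxb5 and Hoxb7). Of the 14, 10 had a log2 fold change above 0 and 4 below 0, with a median of 0.15 against 0.02 over all tested genes. The groups did not overlap for 5 of the 14, all with knockdown higher, against 46.9% of all tested genes in either direction. The changes of the expressed genes were small, and 1 of them exceeded 1.5-fold.

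**Figure D3:**
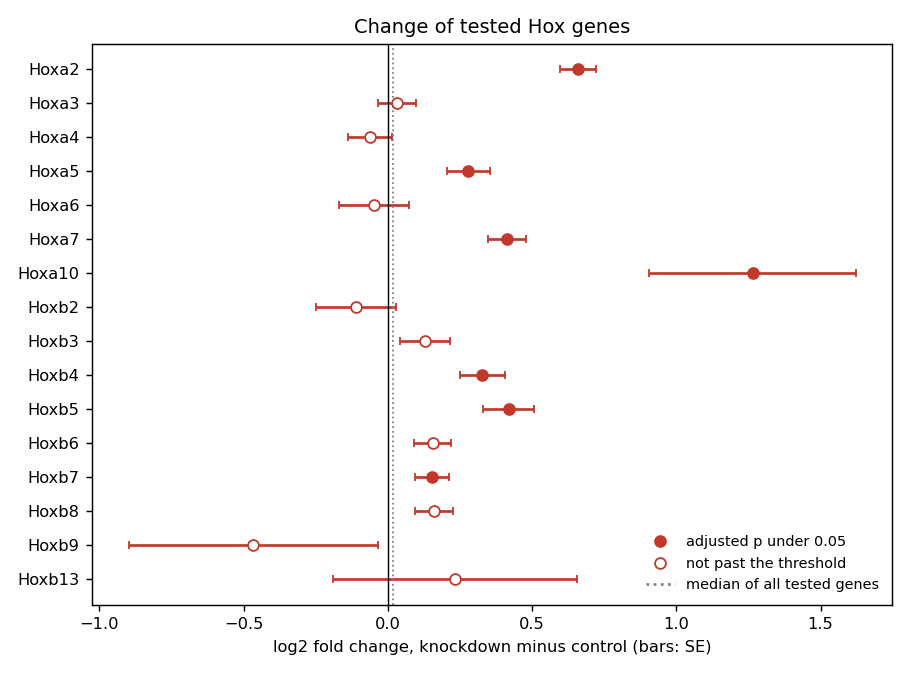
Log2 fold change (knockdown minus control, with SE) of tested Hox genes, with filled points past an adjusted p of 0.05 and a dotted line at the median of all tested genes. Hoxa2 leads the expressed genes at 0.66, 4 of the others risen lie between 0.28 and 0.42, Hoxb7 lies at 0.15, and Hoxa10 rests on few counts.

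Hoxa2, which in the embryo specifies the hindbrain and the second pharyngeal arch, changed most among the expressed genes. It had 24.2, 25.7, 23.6 and 24.9 CPM in the knockdown libraries, against 14.2, 16.0, 15.8 and 16.3 CPM in the control libraries. The lowest knockdown library lay well above the highest control library, and the means were 24.6 ± 0.893 CPM in knockdown cells and 15.6 ± 0.952 CPM in control cells. The log2 fold change was 0.66 ± 0.06 (SE; edgeR adjusted p = 7.33e-07). Other genes of the anterior end did not pass the test. Hoxa3, next to it in the cluster, had 22.2 to 26.7 CPM in knockdown libraries and 22.2 to 24.3 CPM in control libraries (0.03 ± 0.07, adjusted p = 0.712). Hoxb2, the paralogue of Hoxa2, had 4.17 to 5.60 CPM in knockdown libraries and 4.09 to 5.94 CPM in control libraries (-0.11, adjusted p = 0.532), and Hoxb3 had 13.5 to 15.6 CPM in knockdown libraries and 11.9 to 15.9 CPM in control libraries (0.13, adjusted p = 0.241, or 0.0379 without control replicate 2). The ratio of Hoxa2 to Hoxa3 counts, singled out after the values were seen, was 1.04 ± 0.0923 in knockdown libraries and 0.672 ± 0.0607 in control libraries, without overlap. Another transcript on the same strand, Gm28308, covers 15.04% of the Hoxa2 exons.

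**Figure D4:**
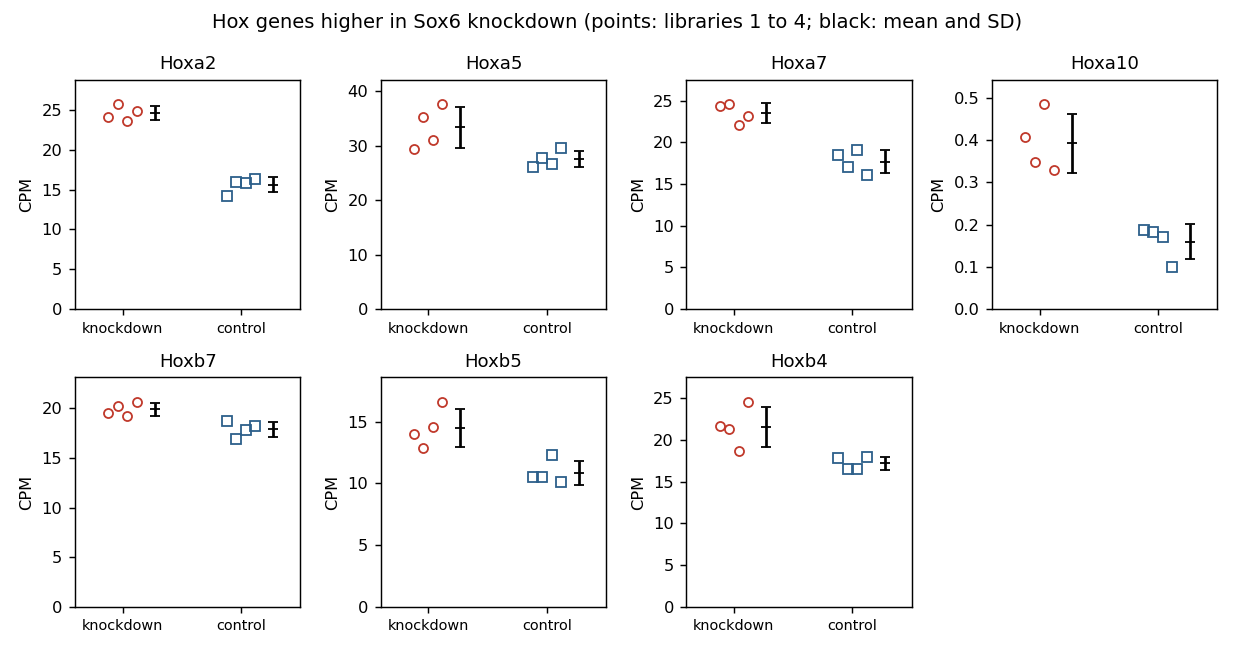
CPM of the 7 Hox genes higher in knockdown cells, with knockdown left of control, 1 point per library and the mean with SD in black; every axis starts at 0. The groups are apart in every panel except Hoxa5, where the lowest knockdown library (29.4 CPM) lies just under the highest control library (29.5 CPM). Hoxa10 rests on few counts and entered the test only through the knockdown libraries.

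In the neck-to-trunk groups the risen genes stood beside genes that did not pass the test. Hoxb4, known also for expanding blood stem cells, had 21.6, 21.3, 18.6 and 24.5 CPM in knockdown libraries and 17.9, 16.5, 16.5 and 17.9 CPM in control libraries. The groups did not overlap (mean 21.5 ± 2.41 CPM in knockdown and 17.2 ± 0.783 CPM in control; log2 fold change 0.33 ± 0.08, edgeR adjusted p = 0.00273). Its paralogue Hoxa4 had 13.2 to 15.5 CPM in knockdown libraries and 13.8 to 16.5 CPM in control libraries (-0.06, adjusted p = 0.529). Hoxa5 had 29.4, 35.2, 31.1 and 37.6 CPM in knockdown libraries and 26.1, 27.7, 26.7 and 29.5 CPM in control libraries. The groups overlapped by 1 library, and the test was passed (mean 33.3 ± 3.72 CPM in knockdown and 27.5 ± 1.49 CPM in control; 0.28 ± 0.07, edgeR adjusted p = 0.00564). Hoxb5, which acts in neural crest and the enteric nervous system, had 13.98, 12.9, 14.6 and 16.6 CPM in knockdown libraries and 10.5, 10.5, 12.3 and 10.1 CPM in control libraries. These did not overlap (mean 14.5 ± 1.55 CPM in knockdown and 10.8 ± 0.979 CPM in control; 0.42 ± 0.09, edgeR adjusted p = 0.00117).

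Groups 6 to 8 pattern the thoracic trunk. Hoxb6 had 31.7, 33.2, 34.4 and 39.6 CPM in knockdown libraries and 31.0, 30.3, 32.0 and 31.5 CPM in control libraries. The groups overlapped through knockdown library 1, and the test was missed (0.16, edgeR adjusted p = 0.0573, or 0.0197 without that library). Hoxa6 had 2.97 to 3.50 CPM in knockdown libraries and 3.23 to 3.64 CPM in control libraries (-0.05, adjusted p = 0.761). Hoxa7 had 24.3, 24.6, 22.1 and 23.2 CPM in knockdown libraries and 18.5, 17.01, 19.2 and 16.1 CPM in control libraries. The groups were apart (mean 23.5 ± 1.16 CPM in knockdown and 17.7 ± 1.37 CPM in control; 0.41 ± 0.07, edgeR adjusted p = 0.000134), although 20.4% of its exons lie under the antisense gene Hoxaas3. Hoxb7 had 19.6, 20.2, 19.2 and 20.7 CPM in knockdown libraries and 18.7, 16.9, 17.8 and 18.2 CPM in control libraries. It did not overlap either, but its change was the smallest of those called (0.15 ± 0.06, edgeR adjusted p = 0.0393), and the call was lost under 9 of 18 other settings. These include leaving out control replicate 2, 3 or 4 or knockdown replicate 1, 2 or 4 (adjusted p = 0.0509 to 0.118). Hoxb8 had 14.6, 14.8, 13.2 and 14.9 CPM in knockdown libraries and 12.5, 13.5, 13.1 and 12.4 CPM in control libraries, which overlap (0.16, edgeR adjusted p = 0.059, or 0.0315 without knockdown replicate 3). Hoxa2, Hoxa5, Hoxa7, Hoxb4 and Hoxb5 kept their call under all 18 settings, so that in groups 5 and 7 both well-expressed members rose, with Hoxb7 the least steady.

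The posterior groups 9 to 13 were rare in every library and are given as raw counts. Their 6 genes in Hoxa and Hoxb summed to 221 counts in knockdown libraries and 160 in control libraries. Hoxa10, which patterns the lumbar region and the uterus, had 18, 18, 19 and 16 counts in knockdown libraries and 8, 8, 8 and 4 counts in control libraries. The groups were apart, and the ratio of summed counts scaled to depth was 2.57 (exact 95% binomial interval 1.64 to 4.14, or 1.33 to 5.11 with counts halved). Its fitted log2 fold change was 1.26 ± 0.36 (edgeR adjusted p = 0.00856), but it entered the test only through the knockdown libraries, since 0 control libraries reached 10 counts, and with no filter its adjusted p was 0.0368. Hoxb9 had 10, 15, 10 and 6 counts in knockdown libraries and 20, 6, 18 and 10 counts in control libraries (edgeR adjusted p = 0.389). Hoxb13 had 18, 24, 8 and 10 counts in knockdown libraries and 10, 20, 12 and 6 counts in control libraries (adjusted p = 0.671), so both overlapped widely. Hoxa9 had 4, 6, 15 and 6 counts in knockdown libraries and 4, 6, 8 and 4 counts in control libraries (ratio 1.43, interval 0.802 to 2.59). Hoxa13, a gene of the distal limb and the genital tract, had 6, 6, 2 and 4 counts in knockdown libraries and 2 in each control library (ratio 2.28, interval 0.945 to 6.07). Hoxa11 had 0 counts in all 8 libraries.

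The 14 analysed genes of Hoxc and Hoxd gave only scattered reads. Hoxc summed to 33 counts in knockdown libraries and 10 in control libraries, and Hoxd to 50 in knockdown libraries and 28 in control libraries. Hoxd13, which shapes the digits, had 12, 10, 6 and 8 counts in knockdown libraries and 0, 12, 0 and 2 counts in control libraries. These overlap through 1 control library, and the ratio was 2.61 (exact interval 1.37 to 5.24, or 1.04 to 7.39 with counts halved). Hoxc6 had 0, 10, 6 and 2 counts in knockdown libraries and 2, 0, 2 and 2 counts in control libraries (ratio 3.04, interval 1.16 to 9.37, or 0.76 to 17.5 with counts halved). Hoxd9 had 0, 2, 0 and 4 counts in knockdown libraries and 0 in each control library. Hoxd10 summed to 6 counts in knockdown libraries and 7 in control libraries, and Hoxc4 to 6 in knockdown libraries and 2 in control libraries. Hoxc9 and Hoxd12 each had 2 counts in 1 knockdown library and 2 in 1 control library. In Hoxc, the genes Hoxc5, Hoxc11 and Hoxc13 had 2 counts each and Hoxc10 had 1, all in knockdown libraries, as did Hoxb1 with 2. In Hoxd, the genes Hoxd3 and Hoxd8 had 2 counts each and Hoxd11 had 1, all in control libraries. Of the 12 rare genes with more than 3 counts in all, the interval lay off 1 for 4, and for 2 with counts halved. The share of rare genes outside the Hox set with such intervals is not given here, so these numbers have no background to be judged by. The ratios use plain totals, which place knockdown cells higher, relative to control cells, than TMM scaling does. Intervals cover counting error only.

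The clusters also hold other genes, most of them non-coding, of which 16 were in the table and 11 were tested. Of the 11, 5 were higher with edgeR (25.4% of all tested genes were higher and 26.0% lower), 0 were lower (also at an unadjusted p under 0.05, with DESeq2 or with limma-voom) and 6 did not pass the test, with 4 of 6 higher in Hoxa and 1 of 5 in Hoxb. Hoxaas2, antisense to the stretch between Hoxa2 and Hoxa3, had 20.3, 24.2, 24.1 and 26.6 CPM in knockdown libraries and 10.1, 10.5, 12.1 and 9.75 CPM in control libraries. Its groups were far apart, and its log2 fold change of 1.16 ± 0.09 (edgeR adjusted p = 9.37e-08) was larger than that of any expressed Hox gene. Hotairm1, an antisense RNA known in human myeloid cells for its effect on anterior HOXA genes, had 2.31, 2.36, 2.88 and 4.52 CPM in knockdown libraries. It had 1.55, 1.80, 1.74 and 1.497 CPM in control libraries, with no overlap (0.87 ± 0.21, edgeR adjusted p = 0.00311). Hoxaas3 had 3.22, 3.20, 3.80 and 4.11 CPM in knockdown libraries and 2.16, 2.06, 2.23 and 1.80 CPM in control libraries, also apart (0.79 ± 0.14, edgeR adjusted p = 0.000327). Gm15050 (0.34, adjusted p = 0.026) and Hoxb5os (0.33, adjusted p = 0.0208) passed by less, and each lost the call when single libraries were left out: Hoxb5os without control replicate 1 or knockdown replicate 4 (adjusted p = 0.0718 and 0.0619), and Gm15050 without control replicate 1, 2 or 4 or knockdown replicate 2 or 4 (0.0578 to 0.0918). The genes that did not pass were 5730596B20Rik (log2 fold change 0.19), Gm29430 (0.14), Mir10a (0.53), Hoxb3os (0.11), Gm11536 (0.01) and Gm11539 (-0.13). Among genes too rare to test, Hoxa11os had 3, 7, 3 and 5 counts in knockdown libraries and 0, 0, 2 and 1 counts in control libraries (ratio 6.09, interval 1.78 to 32.3). The strand setting of the counting is not given in the sources used here, so reads of a Hox gene and of an antisense gene over it cannot be told apart. The share of exon under an opposite gene was 25.4% for Hoxa3, 27.3% for Hoxb2 and 52.9% for Hoxb3, and none for Hoxa5, Hoxb4 and Hoxb7. Among the risen antisense genes, 14.97% of Hoxaas2 lies over Hoxa3 and 14.4% of Hoxb5os over Hoxb5. For Hoxaas3, 30.7% lies over opposite genes, among them Hoxa3 and Hoxa7, and for Hotairm1 19.3% does. The part of such shared reads in their rises was not tested.

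**Figure D5:**
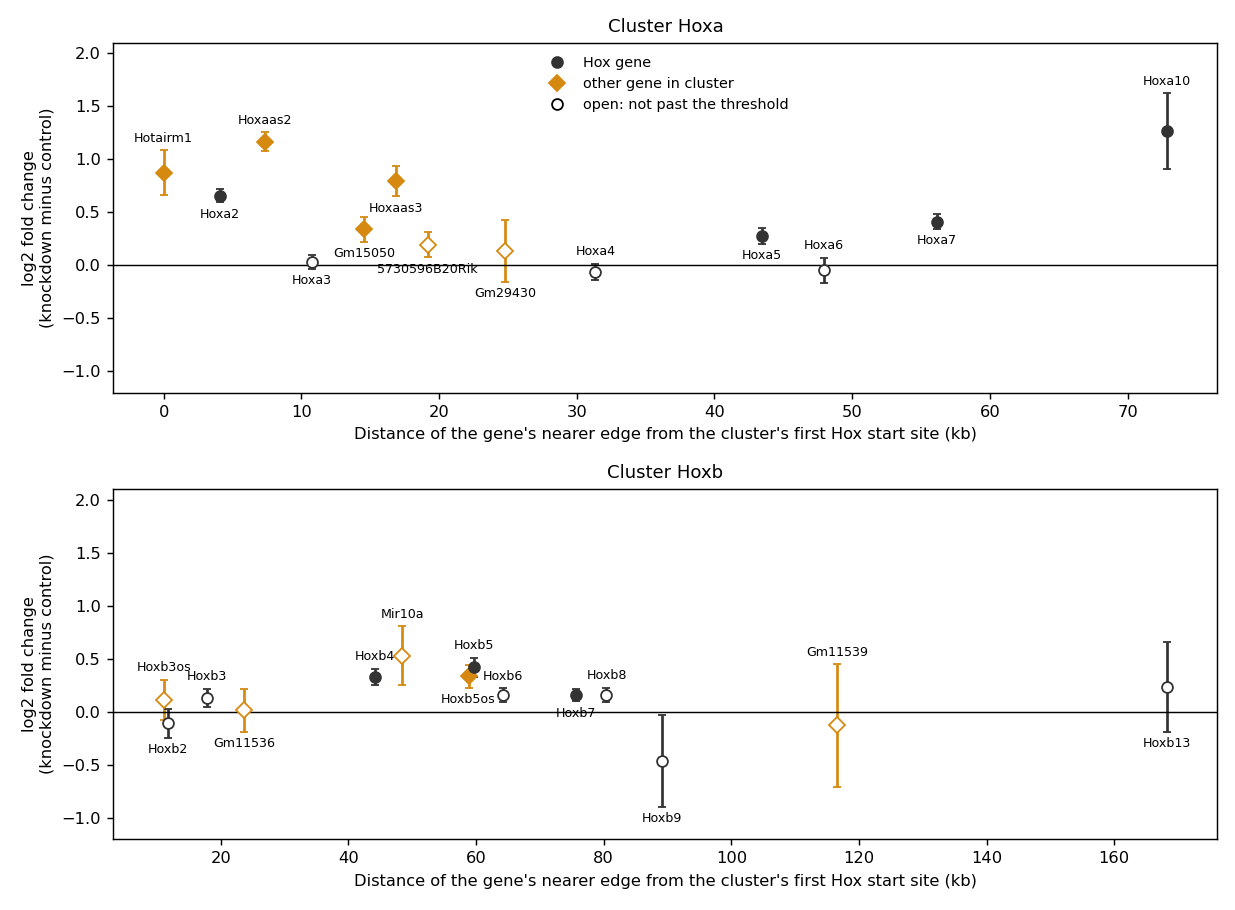
Log2 fold change (knockdown minus control, with SE) of tested genes by distance in kb along Hoxa (top) and Hoxb (bottom), with circles for Hox genes, diamonds for other genes of the clusters, and open symbols for those not past an adjusted p of 0.05. In Hoxa, Hotairm1, Hoxa2 and Hoxaas2 (0.66 to 1.16) lie close together, beside Hoxa3 (0.03).

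Plotted along the chromosome, the changes did not form an even gradient. In the first part of Hoxa, ahead of Hoxa4, Hoxa2 and the non-coding genes Hotairm1, Hoxaas2 and Gm15050 rose. Hoxaas3, whose nearer edge lies there but which reaches as far as Hoxa7, rose too. Hoxa3, 5730596B20Rik and Gm29430, whose nearer edges lie in the same stretch, did not pass. Further on, Hoxa5 and Hoxa7 had Hoxa4 and Hoxa6 beside them, which did not pass either. The count ratio of Hoxa7 to Hoxa6 was 7.12 ± 0.834 in knockdown libraries and 5.16 ± 0.611 in control libraries, without overlap. In Hoxb, the ratio of Hoxb5 to Hoxb6 was 0.418 ± 0.0223 in knockdown libraries and 0.347 ± 0.0264 in control libraries, also without overlap, whereas that of Hoxb4 to Hoxb3 overlapped (1.47 ± 0.187 in knockdown libraries and 1.29 ± 0.170 in control libraries). These pairs were singled out after their values were seen, and the ratios were not tested.

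The TALE partners of Hox proteins were all expressed, and 4 of 9 were higher and 2 lower (25.4% and 26.0% of all tested genes), with a median log2 fold change of 0.04. With total scaling 4 were higher and 1 lower. Meis1, a cofactor that binds with Hox and Pbx proteins, had 37.4, 37.6, 35.7 and 37.1 CPM in knockdown libraries and 29.5, 26.6, 28.5 and 27.4 CPM in control libraries. These lay apart (log2 fold change 0.40 ± 0.05, edgeR adjusted p = 1.22e-05). Pbx2 (0.21, adjusted p = 0.00257), Pbx4 (0.31, adjusted p = 0.00328) and Meis2 (0.16, adjusted p = 0.0146) rose as well. Pknox2 went the other way, at 3.13, 3.84, 2.65 and 4.50 CPM in knockdown libraries and 5.95, 7.15, 6.19 and 6.69 CPM in control libraries (-0.87 ± 0.14, edgeR adjusted p = 0.000157).

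Of 27 Polycomb and Trithorax regulators, 8 were higher and 6 lower (25.4% and 26.0% of all tested genes), with a median of -0.01. With total scaling 12 were higher and 4 lower. Ezh2, the Polycomb enzyme that methylates histone H3 at repressed Hox clusters, had 61.2, 66.3, 68.1 and 60.3 CPM in knockdown libraries and 98.4, 100.3, 119 and 92.8 CPM in control libraries. It fell by 0.68 ± 0.07 on the log2 scale (edgeR adjusted p = 1.4e-06), without overlap. Phc2, a subunit of the Polycomb complex that ubiquitinates histone H2A, averaged 101 ± 5.53 CPM in knockdown cells and 140.2 ± 1.79 CPM in control cells (-0.48 ± 0.04, edgeR adjusted p = 5.14e-07). Gmnn, whose product geminin restrains DNA replication and also binds Polycomb and Hox proteins, averaged 8.62 ± 1.34 CPM in knockdown cells and 14.5 ± 1.58 CPM in control cells (-0.75, adjusted p = 5.31e-05). Kdm6b, which removes the Polycomb methyl mark, averaged 46.9 ± 2.52 CPM in knockdown cells and 38.4 ± 1.43 CPM in control cells (0.29, adjusted p = 0.000249). Ezh2 and Gmnn are also genes of dividing cells. Other genes of the list went both ways. Jarid2 (0.43, edgeR adjusted p = 0.000321) and Ezh1, the paralogue of Ezh2 (0.31, adjusted p = 0.000704), were higher. Wdr5 (-0.24, adjusted p = 0.000326) and Ring1 (-0.19, adjusted p = 0.00566) were lower.

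Of 14 retinoic acid pathway genes tested, 5 were lower and 1 higher (26.0% and 25.4% of all tested genes), with a median of -0.14. With total scaling 4 were lower and 3 higher. Cyp26b1, which degrades retinoic acid, had 14.003, 13.4, 13.4 and 14.2 CPM in knockdown libraries and 22.8, 23.9, 22.3 and 23.3 CPM in control libraries (-0.75 ± 0.06, edgeR adjusted p = 9.61e-08). Aldh1a2, which makes it, averaged 151 ± 11.3 CPM in knockdown cells and 219 ± 6.09 CPM in control cells (-0.54 ± 0.05, edgeR adjusted p = 6.94e-07). An enzyme of synthesis and one of breakdown thus both fell, each with groups apart. Aldh1a3, another enzyme of synthesis, averaged 0.282 ± 0.191 CPM in knockdown cells and 0.924 ± 0.111 CPM in control cells (-1.67, adjusted p = 0.0015). Rarg, a retinoic acid receptor, averaged 153 ± 2.69 CPM in knockdown cells and 137 ± 5.64 CPM in control cells (0.16, adjusted p = 0.00425). Aldh1a2 is also expressed by mesothelium, whose 4 markers were lower in knockdown cells, and the part of this in its change was not tested. Of 8 upstream signals and ParaHox genes, 4 were in the table and 3 were tested, with 1 higher and 0 lower (25.4% and 26.0% of all tested genes). Gdf11, a ligand that starts the posterior Hox program in the embryo, was higher (0.32, adjusted p = 0.0306). Its call was lost without control replicate 2 or 3 or knockdown replicate 3 or 4 (adjusted p = 0.0558 to 0.114). Of 10 other homeobox genes of mesenchyme, 5 were tested, with 0 higher and 1 lower (25.4% and 26.0% of all tested genes). Prrx2 was lower, at 0.272, 0.233, 0.383 and 0.372 CPM in knockdown libraries and 1.59, 1.92, 1.45 and 1.17 CPM in control libraries (-2.29 ± 0.26, edgeR adjusted p = 5.21e-06). Its paralogue Prrx1, a mesenchymal gene of limb and face, averaged 259.7 ± 15.5 CPM in knockdown cells and 264 ± 10.3 CPM in control cells (adjusted p = 0.699).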

How the data were processed

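Total RNA from the cells was isolated in TRIzol and made into libraries using NEBNext Ultra RNA reagents, as stated per the labels. The values are counts of reads per gene as deposited by the authors, whole numbers that were not normalized. The submitters' processing notes name mm10 and DESeq2; aligner, counter and strand setting: not given in the sources used here. Of counts between 1 and 40, 72.03% to 74.2% were even numbers per library, so halved counts were tried.

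Symbols, lengths and exon overlaps came from GENCODE M21 (30008 identifiers with a symbol, 652 without), and promoters from RefSeq. Genes were kept by filterByExpr (minimum count 10), scaled by TMM and tested with edgeR 4.0.16 in R 4.3.3 (quasi-likelihood test, no covariate, all 8 libraries, Benjamini-Hochberg adjusted p under 0.05 over all tested genes). CPM use TMM-scaled totals (plain totals for Sox6 and for the sum over all Hox genes), levels are CPM per kb of merged exons, and ± is SD (n = 4) unless called SE. Rare genes have exact (Clopper-Pearson) 95% binomial intervals, with plain totals as depth. Chi-square per degree of freedom between libraries of a group was 6.15 to 17.6, above sampling noise for every pair.

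The members and lists were chosen with earlier results of these data known. Values of some genes are not reported here. The other Hox genes are accounted for, with full values for those called and the 4 with the highest level. Of each other list, up to 4 called genes with the smallest p are named. Meis2, Jarid2, Ezh1, Wdr5, Ring1 and Prrx1 were added after their values were seen. Other settings were scaling by total, by upper quartile or by DESeq2 size factors, 2 other filters, DESeq2 1.42.0, limma-voom 3.58.1, the replicate number as a block, halved counts, a threshold of 0.01, 2 other lengths, and each library left out. On simulated data for this comparison (15905 genes, 50 changed at each size), the test found 21 genes changed 1.2-fold and 41 changed 1.5-fold. It found 47 changed 2-fold and 50 changed 4-fold, and 9 of its 168 calls were false. Only 200 genes were changed there, whereas 51.5% of tested genes were called in the real data, so these rates do not carry over to it.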

Additional observations from a re-analysis of the deposited data

Results flagged for a closer look

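Hoxb8 had 13.2 CPM in knockdown replicate 3, against 14.6 to 14.9 CPM in the other 3 knockdown libraries. Its gap to the nearest of them was 0.848 of the group's range, past the 95% critical value of Dixon's test for 4 samples. It was 1 of 34 groups examined (17 tested Hox genes in knockdown and control libraries), and chance gives about 1 in 20.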

How the results depend on the processing

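Over 18 other settings of the test, the number of genes called ran from 6332 (adjusted p under 0.01) to 8967 (total scaling), and the number of Hox genes called higher from 6 to 10. Total scaling moved the median log2 fold change of all genes to 0.12, against 0.02 with TMM, which bears on small changes. Leaving out 1 library gave 7681 to 8032 genes called, 6 to 8 Hox genes higher and 0 to 1 lower (1 without control replicate 3). Hoxa2, Hoxa5, Hoxa7, Hoxb4 and Hoxb5 were called in all 18 settings. Hoxa10 was called in the 16 that tested it, but the main filter kept it only through the knockdown libraries. It was too rare to be tested with the 1 CPM filter or with halved counts. Direction turned for genes near 0 that were not called. Under total scaling these were Hoxa4 (0.038) and Hoxa6 (0.053). With 1 library left out, Hoxa3 ran from -0.027 to 0.065, Hoxa6 from -0.080 to 0.0025, Hoxb13 from -0.0099 to 0.59, Hoxb3os from -0.050 to 0.24, Gm11539 from -0.40 to 0.28 and Gm11536 from -0.067 to 0.16. The cause was not tested. Without a filter, 3 retinoic acid genes were called higher and 6 lower, against 1 higher and 5 lower with the main filter.

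Deviations of same-numbered libraries from their group means correlated at -0.0238, -0.249, 0.0661 and 0.0493. Those of differently numbered libraries ran from -0.336 to 0.326. The numbers thus showed no pairing, but such correlations cannot tell whether libraries were prepared in pairs. With the number as a block, 7985 genes were called, with 6 Hox genes higher and 0 lower, and Hoxb7 missed the threshold (adjusted p = 0.0742). Depth limits the genes of Hoxc, Hoxd and groups 9 to 13, where a library held 24 counts or fewer of any gene.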
